A study of Mus musculus with 12 samples.

Results

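Integrins are adhesion receptors made of 1 alpha and 1 beta chain, and the genes followed here are the integrin chains of hippocampal microglia. They were taken by symbol, as every immune gene of the counting panel whose name starts with Itga or Itgb. That gave 9 genes of 545: 7 alpha chains (Itga2b, Itga4, Itga5, Itga6, Itgal, Itgam and Itgax) and 2 beta chains (Itgb1 and Itgb2). Microglia came from the hippocampus of male pups of the Balbc (BALB/c) strain raised under control conditions, 6 at postnatal day 14 (P14) and 6 at postnatal day 28 (P28). Each sample is a separate animal, drawn from different litters. Cells were isolated acutely by Percoll gradient and flow sorting, and their RNA was measured with the mouse immune panel of nCounter, an assay that counts fluorescent barcodes bound to each target without sequencing. The animals compared differ in age, and no transgene, drug or stress exposure is named for them.

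An alpha chain reaches the cell surface only in a pair with a beta chain, and the alpha chain largely sets which ligand the pair binds. The beta 2 chain (Itgb2, CD18) is restricted to leukocytes and pairs with Itgal to form LFA-1, which binds ICAMs, with Itgam to form Mac-1 (complement receptor 3, the CD11b of microglial sorting) and with Itgax to form complement receptor 4 (CD11c). The beta 1 chain (Itgb1, CD29) is widely expressed and pairs with Itga4 to form VLA-4, which binds VCAM-1 and fibronectin, with Itga5 to form the fibronectin receptor and with Itga6 to form a laminin receptor. Itga2b, the platelet chain CD41, pairs with beta 3. The beta 3 chain was not among the panel's genes analysed here, so Itga2b has no partner to compare with.

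All 9 genes matched a mouse RefSeq gene by accession. In that annotation (GRCm38.p6) no protein-coding gene lies between Itgam and Itgax, whose chains share the beta 2 partner. A promoter window of the RefSeq table was found for 6 of the 9. The stretches before the annotated start are shown for 2 pairs of genes that the results set side by side: Itgax, which rose, with its neighbour Itgam, which did not pass the test, and Itga5, which rose, with its partner Itgb1, which fell. They run 5′ to 3′ on the gene's strand. Capitals mark GAGGAA, the core of many binding sites of the myeloid factor PU.1, and GGGCGG, the GC box bound by Sp1, each searched on both strands (TTCCTC and CCGCCC are the same motifs on the other strand).
Itgam, chr7:128062390-128062639, plus strand: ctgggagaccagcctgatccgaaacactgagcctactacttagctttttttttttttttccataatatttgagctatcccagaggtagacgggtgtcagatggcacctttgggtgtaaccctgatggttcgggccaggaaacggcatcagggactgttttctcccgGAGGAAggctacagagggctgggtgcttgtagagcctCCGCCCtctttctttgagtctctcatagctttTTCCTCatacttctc
Itgax, chr7:128129300-128129525, plus strand: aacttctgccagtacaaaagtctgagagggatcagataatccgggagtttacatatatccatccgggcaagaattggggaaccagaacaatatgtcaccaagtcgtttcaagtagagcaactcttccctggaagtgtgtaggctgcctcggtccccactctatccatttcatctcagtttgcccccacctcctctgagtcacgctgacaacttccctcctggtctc
Itga5, chr15:103366792-103367041, minus strand: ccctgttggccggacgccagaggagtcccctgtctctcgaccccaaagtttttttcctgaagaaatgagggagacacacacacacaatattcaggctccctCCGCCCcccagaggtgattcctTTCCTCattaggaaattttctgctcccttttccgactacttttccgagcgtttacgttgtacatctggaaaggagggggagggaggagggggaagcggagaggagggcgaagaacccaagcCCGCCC
Itgb1, chr8:128685404-128685653, plus strand: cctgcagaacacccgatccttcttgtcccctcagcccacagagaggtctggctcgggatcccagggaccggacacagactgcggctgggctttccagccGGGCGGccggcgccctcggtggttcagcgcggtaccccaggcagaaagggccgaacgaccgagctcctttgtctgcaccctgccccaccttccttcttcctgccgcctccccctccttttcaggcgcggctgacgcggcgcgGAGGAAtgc
GAGGAA occurred at 2 places in the Itgam stretch, at 1 place each in those of Itga5 and Itgb1 and at 0 in that of Itgax. GGGCGG occurred at 1 place each for Itgam and Itgb1, at 2 for Itga5 and at 0 for Itgax. No match of 1 motif overlapped a match of the other. Of 32851 promoter windows in the table cut to 250 bases, 23.3% held GAGGAA and 32.7% held GGGCGG, and cut to the 226 bases shown for Itgax, 21.0% and 29.3% did. Such a match is a description of the letters and is no measured site.

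Levels are raw counts divided by the geometric mean of 6 reference genes (Alas1, Gapdh, Oaz1, Polr1b, Sdha and Tbp), called scaled counts here. Counts of different probes are not per length, so levels were compared between ages within a gene and not between genes. The summed raw count of the 545 genes lay between 356398 and 1316430 at P14 and between 1025196 and 1534665 at P28. The RNA was amplified by PCR before counting, so counting error alone understates the error. A gene counted as above background in a sample when its raw count passed a threshold set by that lane's negative probes, 2 SD over their mean, and all 9 chains passed the rule for testing, above background in at least 40% of samples. The geometric mean of the positive-control counts was 542 to 651 in the P14 lanes and 1069 to 1235 in the P28 lanes. Lane yield thus went with age in every comparison here, whichever scale was used, and lane and age cannot be told apart. In sorted bulk samples, fewer cells of a type and less RNA per cell cannot be told apart. Microglial markers were well above background throughout: 6 of 6 panel members (Cx3cr1, Csf1r, Trem2, Tgfbr1, Ptprc and Tyrobp) were present, with a summed level of 96940 to 160535 scaled counts at P14 and 156214 to 168120 at P28. Csf1r, averaging 82169.5 at P14 and 100769 at P28, made up most of that sum. Trem2 was higher at P28 (log2 fold change 0.71, adjusted p = 0.000690 in the edgeR test), and the other 5 did not pass. P14 samples 4 and 5 stand apart from the other P14 samples, and results that rest on them are given with and without them.

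Itgax and Itga5 rose between P14 and P28, Itgal and Itgb1 fell, and the other 5 chains did not pass the test. Thus 4 of 9 chains were called at an FDR of 0.05, against 30.6% of the 366 genes tested, with higher calls in 16.7% and lower calls in 13.9% of those genes. In 3 of the 9 (Itgax, Itga5 and Itgal) the samples of the ages did not overlap, against 20.8% of all genes tested. The median log2 fold change was -0.29 over the 9 chains and 0.0026 over the 366 genes. Without P14 samples 4 and 5, the chains higher and lower numbered 2 and 4, since Itga6 and Itga2b then passed as lower.

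**Figure D1:**
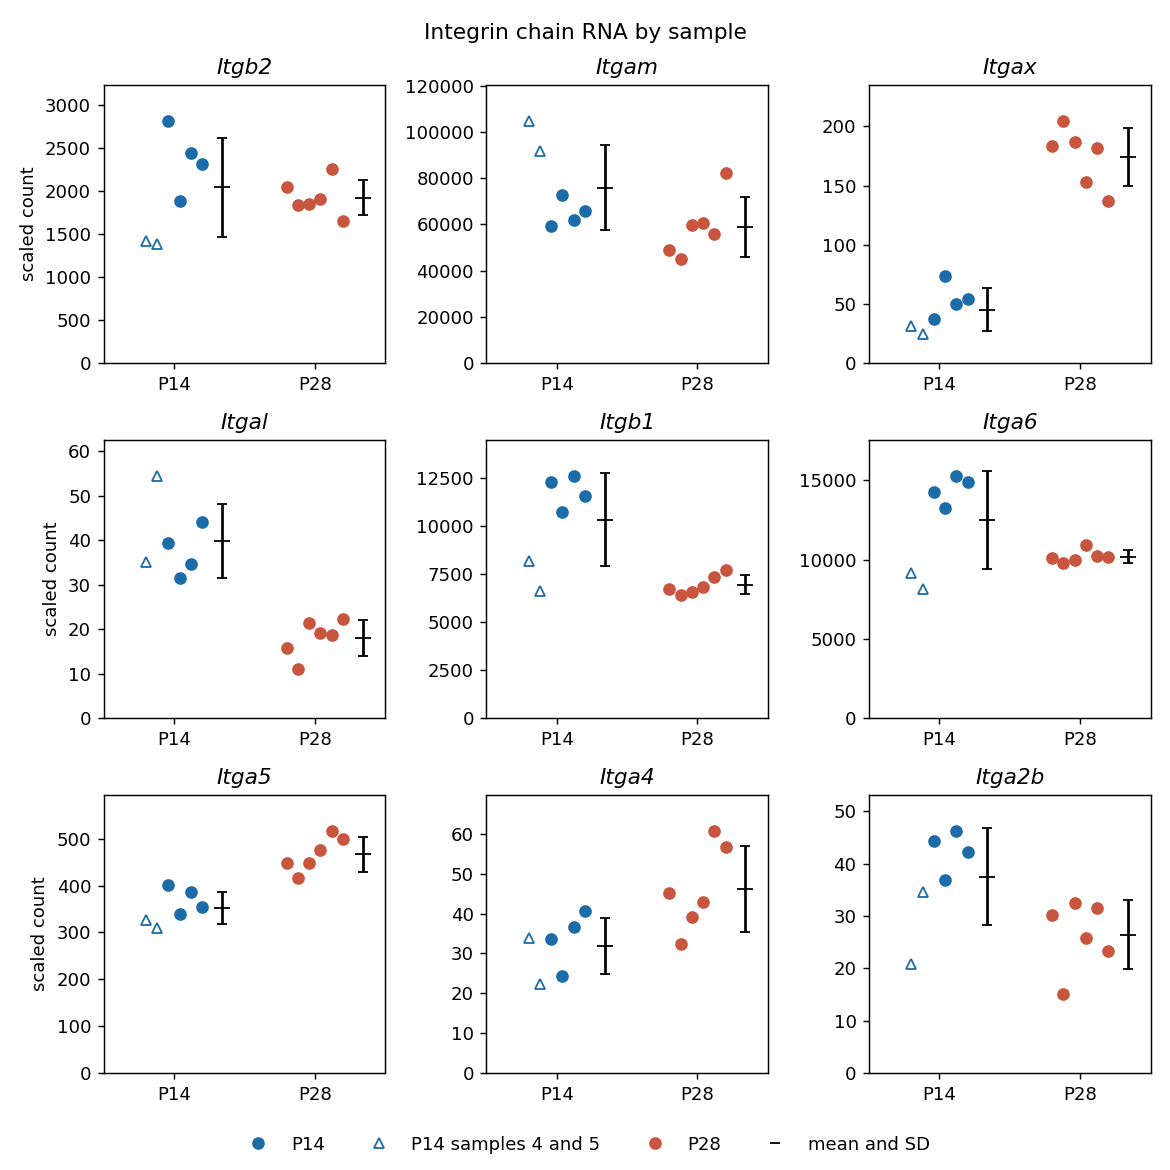
Scaled counts (raw counts over the mean of 6 reference genes, linear axes from 0) of the 9 integrin chains in each of 6 P14 and 6 P28 samples, with the mean and SD beside the points. Open triangles are P14 samples 4 and 5, which hold the highest Itgam and the lowest Itgb2, Itga6 and Itgax values of P14. Itgax and Itga5 lie higher and Itgal lies lower at P28 with no overlap.

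Among the chains of the beta 2 family, Itgax rose and Itgal fell, while the shared partner Itgb2 and Itgam did not pass the test. Itgb2 had its lowest, median and highest scaled counts at 1387, 2098 and 2816 at P14 and at 1653, 1882 and 2261 at P28. The P28 samples all lay within the P14 range, and the difference did not pass the test (log2 fold change -0.09 ± 0.17 SE, adjusted p = 0.721, n = 6 per age). P14 samples 4 and 5, at 1425 and 1387, were the lowest of their age, the others lying between 1882 and 2816. Without them the log2 fold change was -0.30 (adjusted p = 0.0573), and with the authors' factors it was 0.044. With positive controls alone it was -0.89 (adjusted p = 0.0619), a scale on which the median of all 366 genes was -0.74.

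Itgax, the CD11c chain best known from dendritic cells and from microglia of developing white matter, was at 24.7, 43.5 and 73.8 scaled counts at P14 (lowest, median and highest) and at 137, 182 and 204 at P28. The lowest P28 sample lay above the highest P14 sample. The means were 45.2 ± 17.9 and 174 ± 24.8 (SD, n = 6), a fitted fold of 3.76 (log2 fold change 1.91 ± 0.22, adjusted p = 1.34e-05). At P14 the counts were near background: 5 of 6 samples exceeded their lane's threshold, by 1.37 to 5.31 times, and P14 sample 5 did not, with 10 raw counts. With the mean of the negative probes subtracted the log2 difference was 2.57 (adjusted p = 0.000740), and without P14 samples 4 and 5 it was 1.70.

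Itgal, the CD11a chain of LFA-1, went the other way, from 31.5, 37.3 and 54.4 scaled counts at P14 to 11, 18.8 and 22.3 at P28. All 6 P14 samples were above background, by 1.47 to 2.27 times their threshold, and 0 of 6 P28 samples were. The level at P28 is therefore only bounded, and Itgal was at least 1.56-fold lower at P28 (adjusted p = 0.000254). That bound sets the P14 mean against the mean of the scaled P28 thresholds. The fitted log2 fold change of -1.13 ± 0.18 is no bound, and it was -2.50 with the negative probes subtracted.

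Itgam, the CD11b chain, was far above its lane's threshold in every sample. Its scaled counts were 59088, 69101 and 104602 at P14 and 45185, 57677 and 82378 at P28. The ages overlapped, and the difference did not pass (log2 fold change -0.37 ± 0.17, adjusted p = 0.113). P14 samples 4 and 5, at 104602 and 91769, were the highest of all 12, and P28 sample 138, at 82378, was the highest of its age. Without P14 samples 4 and 5 the log2 fold change was -0.14, and without P28 sample 138 it was -0.49 and passed (adjusted p = 0.0296). In all, Itgam passed as lower in 4 of 28 alternatives. The others were total counts (-0.57, adjusted p = 0.0230), positive controls alone and the reference genes without Polr1b.

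In the beta 1 family the partner itself fell. Itgb1 was at 6633, 11136 and 12593 scaled counts at P14 and at 6378, 6779.5 and 7706 at P28, with means of 10327 ± 2406 and 6928 ± 499 (log2 fold change -0.58 ± 0.15, adjusted p = 0.00812). P14 samples 4 and 5, at 8174 and 6633, were the lowest of their age, and sample 5 lay within the P28 range. The other 4 P14 samples lay between 10701 and 12593, above every P28 sample. Without samples 4 and 5 the log2 fold change was -0.77 (adjusted p = 8.54e-06).

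Itga6, the laminin-binding chain, also had its lowest P14 values in those samples. It was at 8127, 13759.9 and 15267 at P14 and at 9770.05, 10116 and 10903 at P28. The difference did not pass (-0.29 ± 0.15, adjusted p = 0.144). P14 samples 4 and 5, at 9123 and 8127, lay below all 6 P28 samples, while the other 4 P14 samples, at 13273 to 15267, lay above them. Without samples 4 and 5 Itga6 passed as lower (-0.50, adjusted p = 9.34e-05). In all, Itga6 passed as lower in 7 of 28 alternatives. With all 12 samples these included TMM factors (-0.32, adjusted p = 0.0187) and total counts (-0.43, adjusted p = 0.00916).

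Itga5, the chain of the fibronectin receptor, rose. Its scaled counts were 309, 346 and 400.1 at P14 and 416, 462 and 516 at P28, a log2 fold change of 0.40 ± 0.10 (adjusted p = 0.00814). The ages did not overlap, and the lowest P28 sample was just above the highest P14 sample. Every sample was at least 9.67 times its lane's threshold. The difference turned to -0.35 with positive controls alone, a scale on which the median of all 366 genes moved to -0.74. Relative to that median it was 0.39 there, against 0.40 as fitted.

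Itga4, the VLA-4 chain that blood leukocytes use to cross vessel walls, was close to background. It was at 22.3, 33.7 and 40.6 scaled counts at P14 and at 32.3, 44.1 and 60.7 at P28, above background in 5 and in 6 of 6 samples. The difference did not pass (0.51 ± 0.19, adjusted p = 0.0505), passed in 11 of 28 alternatives, among them DESeq2, limma on scaled counts and the authors' factors, and was -0.25 with positive controls alone. Itga2b was at 20.9, 39.6 and 46.2 at P14 and at 15.0, 28.0 and 32.5 at P28, above background in 6 and in 4 of 6 samples. It did not pass (-0.53 ± 0.21, adjusted p = 0.0747), passed as lower in 9 of 28 alternatives, and the ages overlapped through P14 sample 4 at 20.9.

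The authors' deposited table lists 8 of the 9 chains, Itgal not among them. Its folds of the P28 mean over the P14 mean were 4.21 for Itgax, 1.58 for Itga4, 1.45 for Itga5, 1.03 for Itgb2, 0.89 for Itga6, 0.84 for Itgam, 0.77 for Itga2b and 0.74 for Itgb1. The order of those 8 genes was that of their fitted log2 fold changes. With total counts, positive controls or the 6 reference genes without Polr1b as the scale, 5 chains passed as lower. They were Itga2b, Itga6, Itgal, Itgam and Itgb1 on each of these scales. With the authors' factors the chains lower were Itgal and Itgb1, as reported.

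**Figure D2:**
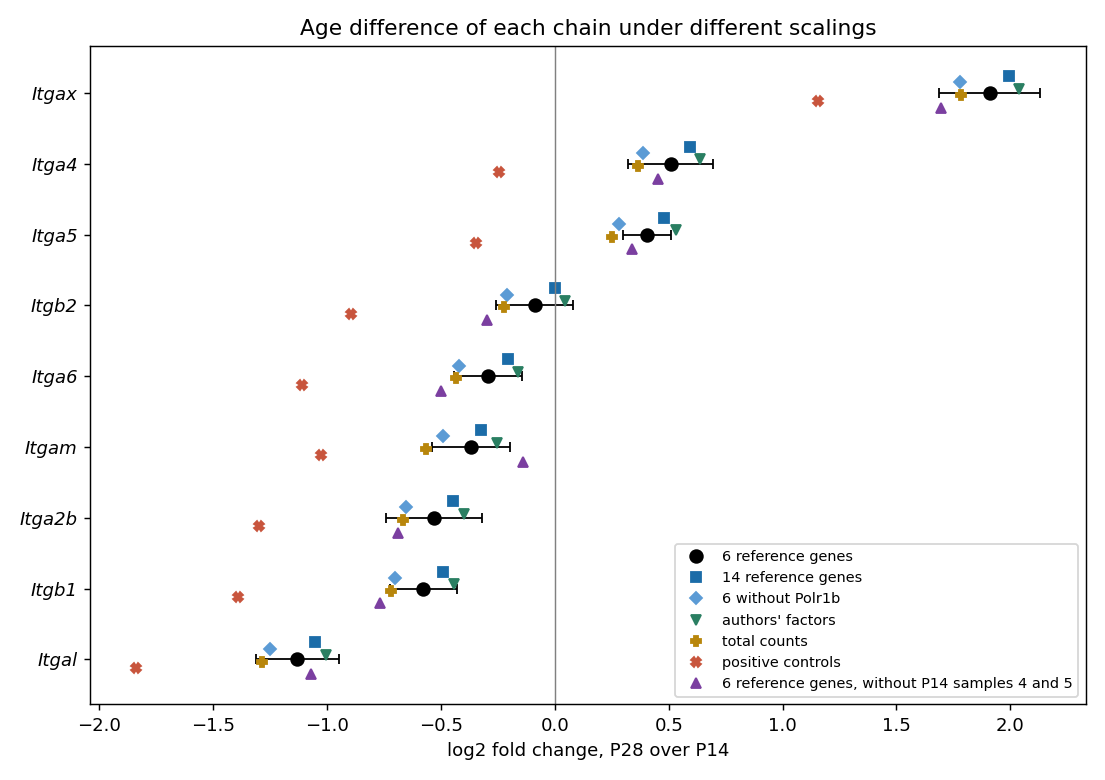
Log2 fold change (P28 over P14) of each integrin chain on the x axis, with the SE of the fit on 6 reference genes (black circles) and the value under other scalings or without P14 samples 4 and 5. Positive controls shift every chain to lower values, Itgax stays above 0 at 1.16 and Itga5 moves to -0.35.

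Each alpha chain was then set against its beta partner in the same lane, as the ratio of their raw counts. This ratio needs no reference gene, and its absolute size depends on the probes, so only its change between ages is read. All other present genes were tested in the same way, with the beta chain's count as the only scale in the edgeR fit. Relative to Itgb2, 2 of 3 alpha chains changed (26.0% of the 365 genes tested did, 17.5% higher and 8.49% lower). Relative to Itgb1, 3 of 3 rose, beside 67.9% of the 365 genes tested that changed, 64.7% higher and 3.29% lower, since Itgb1 itself fell.

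The Itgax count was 1.31%, 2.12% and 3.92% of the Itgb2 count at P14 (lowest, median and highest) and 8.0%, 8.60% and 11.1% at P28. The ages did not overlap, and the ratio rose by a log2 change of 1.99 ± 0.23, a fold of 3.96 (adjusted p = 1.48e-05). The Itgal count fell from 1.40%, 1.79% and 3.92% of the Itgb2 count to 0.601%, 0.912% and 1.35% (log2 change -1.08 ± 0.27, adjusted p = 0.00868). With the negative probes subtracted from both chains, the log2 change was 2.62 for the Itgax ratio and -2.46 for the Itgal ratio. At P28 these Itgal counts were at background, so the ratio there is an upper limit. For both ratios the ages were apart, as for 17.0% of the genes set against Itgb2, and the exact two-sided permutation test over the 12 samples gave p = 0.00216 for each, the smallest it can give, or 0.0127 adjusted over all genes by Benjamini-Hochberg.

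The ratio of Itgam to Itgb2 did not pass the test (log2 change -0.44 ± 0.31, adjusted p = 0.329) and spread widely within P14. It was 73.4 and 66.1 in P14 samples 4 and 5, between 21.0 and 38.6 in the other 4 P14 samples, and between 23.9 and 32.1 in 5 P28 samples, with P28 sample 138 at 49.8. Without P14 samples 4 and 5 the sign turned (0.14, adjusted p = 0.636).

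In the beta 1 family, the Itga5 count was 3.06%, 3.21% and 4.66% of the Itgb1 count at P14 and 6.48%, 6.72% and 7.03% at P28 (log2 change 0.94 ± 0.13, adjusted p = 1.37e-05). The 6 P28 samples lay within a narrow band above every P14 sample. The Itga4 count rose from 0.227%, 0.313% and 0.415% of the Itgb1 count to 0.507%, 0.650% and 0.827% (1.10 ± 0.17, adjusted p = 7.73e-05). The Itga6 count rose from 1.12, 1.22 and 1.29 times the Itgb1 count to 1.32, 1.51 and 1.60 times (0.29 ± 0.09, adjusted p = 0.00958). None of the 3 ratios overlapped between the ages, as for 38.1% of all genes set against Itgb1. The P14 samples 4 and 5 did not stand apart in the Itga6 ratio, at 1.12 and 1.23, although both chains were low in them.

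Between the beta chains, the Itgb1 count was 4.36, 5.07 and 5.74 times the Itgb2 count at P14 and 3.25, 3.51 and 4.66 times at P28 (log2 change -0.49 ± 0.12, adjusted p = 0.00637). The ages overlapped only through P28 sample 138, at 4.66.

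**Figure D3:**
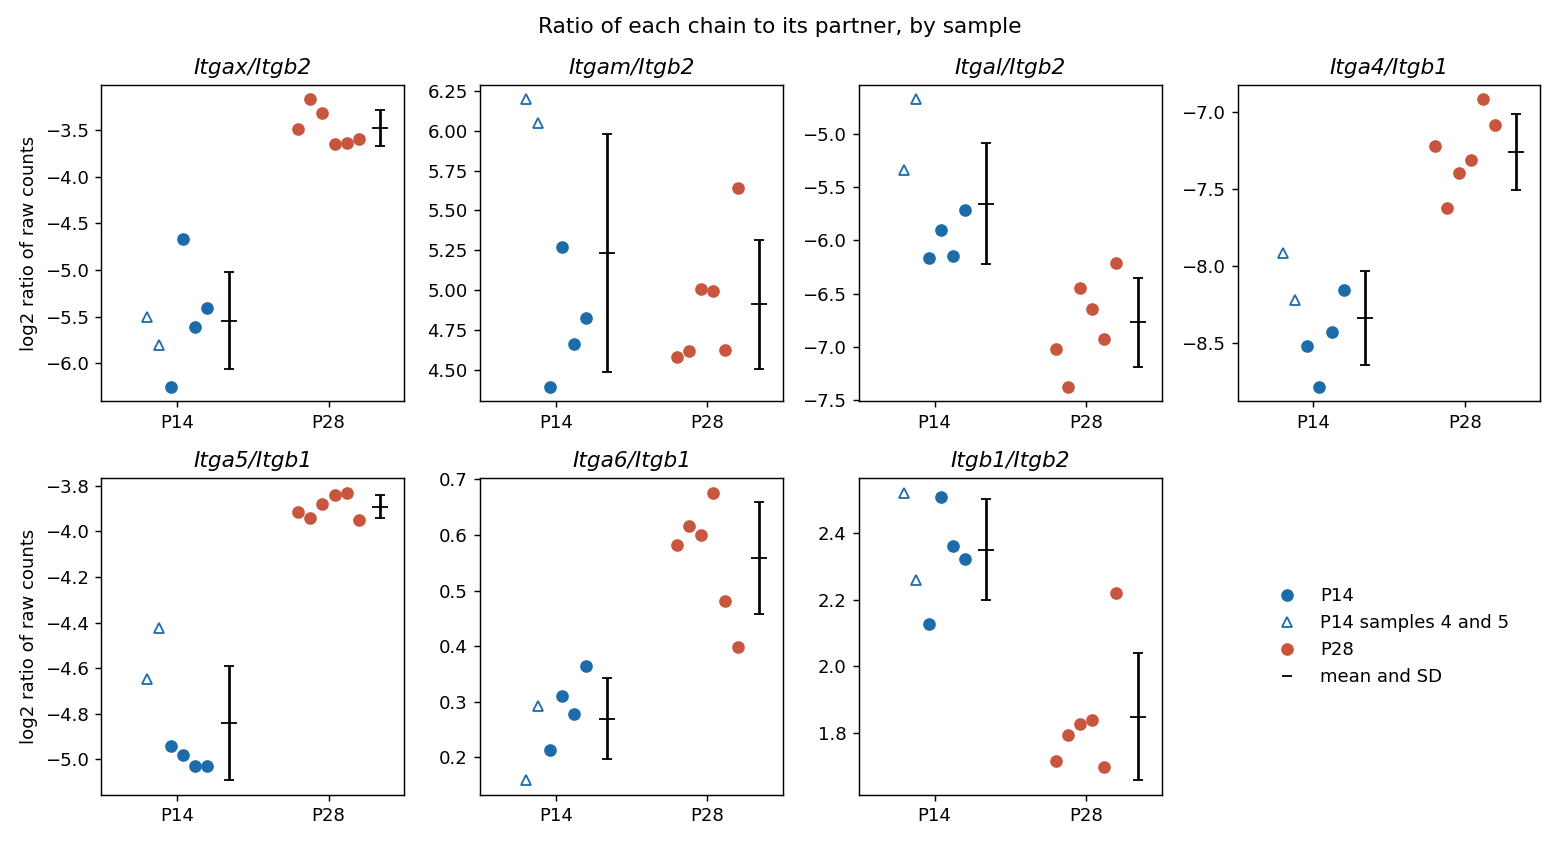
Log2 ratio of raw counts of each alpha chain to its beta partner, and of Itgb1 to Itgb2, in 6 P14 and 6 P28 samples, with mean and SD and with P14 samples 4 and 5 as open triangles. Itgax to Itgb2 and the 3 ratios to Itgb1 lie higher at P28 with no overlap, Itgal to Itgb2 lies lower, and Itgam to Itgb2 overlaps, with P14 samples 4 and 5 at the top.

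Chains of the same receptor did not vary together in every pair. Over the 12 samples, with the mean of each age removed, log2 scaled counts of Itga6 and Itgb1 correlated at r = 0.949, of Itga5 and Itgb1 at 0.826 and of Itga4 and Itgb1 at 0.609, while those of Itgam and Itgb2 correlated at -0.796. Without P14 samples 4 and 5 (10 samples) these values were 0.527, 0.905, 0.841 and -0.566. Itgax and Itgb2 gave 0.487 and -0.465, so that relation rests on those samples. Itgal and Itgb2 gave -0.196 and 0.096, with Itgal at background at P28. The genes whose age-centred levels were most like Itgb2 were Irf8 (r = 0.985, or 0.958 without P14 samples 4 and 5), Psmb7 (0.980, or 0.936) and Tgfbr1 (0.977, or 0.929). Those most like Itgam were Ctnnb1 (0.980, or 0.966 without them), Csf2rb (0.975, or 0.950) and Cd81 (0.967, or 0.934). Those most like Itgax were Cd83 (0.893, or 0.714), Cd14 (0.878, or 0.674) and H2-Ob (0.833, or 0.605). Those most like Itgb1 were Nfatc1 (0.980, or 0.856), Tnfrsf1b (0.979, or 0.831) and Il10rb (0.977, or 0.791). All points share the reference-gene scale and the same 12 libraries, so these values are descriptions only. P14 samples 4 and 5 also had the lowest summed counts of their age, 772723 and 356398, and the part of depth in their position was not tested.

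Integrin ligands and partners of the panel were followed as lists. Of 10 ligands and counter-receptors on the panel 5 were present, and 0 rose, 1 fell and 4 did not pass, with a median log2 fold change of -0.28. Among all 366 genes tested, 16.7% were called higher and 13.9% lower. Icam5, a neuronal ICAM that binds LFA-1, exceeded background in 5 of 6 P14 samples and in 0 of 6 P28 samples and was at least 1.12-fold lower at P28 (adjusted p = 0.0145), a call lost with the negative probes subtracted (adjusted p = 0.187). Fn1, the fibronectin bound by Itga5 and Itga4 receptors, averaged 37.6 ± 11.6 scaled counts (P14) and 24.2 ± 6.73 (P28) without passing the test (adjusted p = 0.0512). It was above background in 5 of 6 P14 samples and in 2 of 6 P28 samples. Icam1, a ligand of LFA-1 and Mac-1, averaged 2317 ± 49.8 and 2561.5 ± 310.2, which did not pass (adjusted p = 0.272). Thy1 (-0.28 ± 0.26) and Icam4 (0.06 ± 0.20) did not pass either, and Thy1 was above background in 4 of 6 P14 and 1 of 6 P28 samples. Vcam1, the VLA-4 ligand, and C3, whose fragment iC3b is bound by Mac-1 and complement receptor 4, were not above background often enough to be tested.

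Of 19 membrane partners and signalling genes on the panel 18 were present, and 2 rose, 4 fell and 12 did not pass, with a median log2 fold change of 0.02. Over all 366 genes tested, 30.6% were called, 16.7% as higher and 13.9% as lower. Cd9, a tetraspanin that associates with beta 1 integrins, rose from 1465 ± 357 to 2128 ± 254 scaled counts (0.54 ± 0.16, adjusted p = 0.0183). Plaur, the urokinase receptor that binds beta 1 and beta 2 integrins on the same membrane, rose from 37.2 ± 9.39 to 53.3 ± 5.97 (0.54 ± 0.16, adjusted p = 0.0179). With positive controls alone these differences were -0.25 and -0.16. The call of Cd9 was lost without Polr1b (adjusted p = 0.0621) and that of Plaur with total counts (adjusted p = 0.0915). Fyn, a Src-family kinase acting below integrins, fell from 859 ± 283 to 309 ± 42.2 (adjusted p = 6.62e-05), with no overlap between the ages, as for 20.8% of all genes tested. Fcer1g, an adaptor through which beta 2 integrins reach Syk in myeloid cells, fell from 4318 ± 499.8 to 2057 ± 77.8, while the second such adaptor, Tyrobp (0.04 ± 0.19, adjusted p = 0.907), and Syk itself (-0.03 ± 0.11, adjusted p = 0.859) did not pass. Cd53, a leukocyte tetraspanin, fell by 0.51 on the log2 scale (adjusted p = 0.0188), and Cd97, an adhesion receptor, fell by 0.49 (adjusted p = 0.0155). Cd97 was above background in 6 of 6 P14 samples and in 1 of 6 P28 samples, so its P28 level is at background, and the log2 difference was -0.98 with the negative probes subtracted. The calls of Cd53 and Cd97 were lost with all 14 reference genes (adjusted p = 0.0535 for each), and that of Cd53 also without P14 samples 4 and 5.

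**Figure D4:**
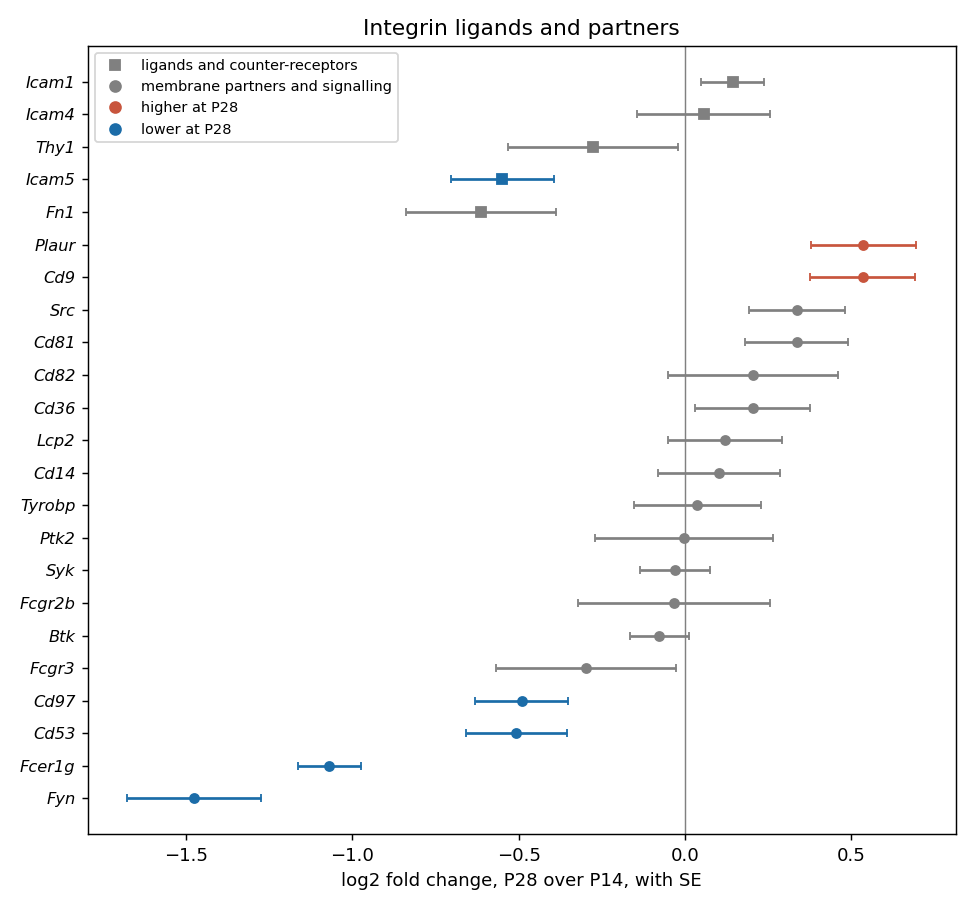
Log2 fold change (P28 over P14, with SE, n = 6 per age) of the present integrin ligands and counter-receptors (squares) and membrane partners and signalling genes (circles). Plaur and Cd9 (red) passed as higher, Icam5, Cd97, Cd53, Fcer1g and Fyn (blue) passed as lower, and grey genes did not pass.

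Markers of other cells that carry these chains were read beside them. Itgal is abundant on lymphocytes. Of 10 T cell markers on the panel 3 were present, Cd5 rose and Lck fell, and Cd3e, Cd2 and Cd28 were above background in no sample. The list's summed level was 224 to 267 scaled counts at P14 and 199.6 to 271 at P28. Of 6 NK cell markers 4 were present, Klrd1 rose, Klrk1 and Gzma fell, Gzmb was never above background, and the sum was 91.5 to 219 at P14 and 214.5 to 327 at P28. For neutrophils, 3 of 6 markers were present, Cxcr2 fell and S100a9 was never above background, with sums of 2875 to 8706 at P14 and 4190 to 8272 at P28. Csf3r, at 4626 ± 2404 and 5186 ± 1504, made up most of the neutrophil sum and did not pass (adjusted p = 0.703). The sums of these 3 lists overlapped between the ages. Among their members, Lck, Klrk1, Gzma and Cxcr2 fell and Cd5 and Klrd1 rose, each with no overlap between the ages. Of all genes tested, 20.8% did not overlap. At P28 Klrk1, Gzma and Cxcr2 were above background in 0 of 6 samples, and at P14 Cd5 and Klrd1 were in 3 and 2 of 6. Of the B cell receptor genes, Cd79b fell from 422 ± 84.4 to 184 ± 46.8 scaled counts with no overlap (log2 fold change -1.20, adjusted p = 0.000139), and Cd79a rose from 20.7 ± 5.94 to 36.5 ± 6.16 (adjusted p = 0.00483). The part of such cells in the fall of Itgal was not tested.

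Itgax is abundant on dendritic cells. Of 4 dendritic cell markers on the panel 3 were present and Cd83 rose, and the sum was 908 to 1561 scaled counts at P14 and 1742 to 2208 at P28, with no overlap. Cd83, at 966 ± 239 and 1536 ± 161, made up most of that sum. The other present markers, Batf3 (adjusted p = 0.127) and Irf4 (adjusted p = 0.0788), did not pass. Ccr7 was above background in 2 of 6 samples at each age. Ccl24, a chemokine of border macrophages, rose from 68.5 ± 12.4 to 99.9 ± 17.8 (adjusted p = 0.0172). The part of such cells in the rise of Itgax was not tested. For platelets, which carry Itga2b, 0 of 2 markers (Gp1bb and Ppbp) were present. Endothelial and mural cells carry Itga6 and Itgb1: all 4 markers were present, Cd34 and Pdgfrb rose, Cdh5 fell and Pecam1 did not pass. Their sum was 3063 to 4850 at P14 and 6179 to 14622 at P28. Cd34, at 1198 ± 373 and 6972 ± 2568, set that direction. The other 3 summed to 2073 to 3345 in P14 samples and to 1857 to 2941 in P28 samples, which overlap. The part of such cells in the Itgb1 result was not tested.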

How the data were processed

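RNA of 12 samples of sorted hippocampal microglia (6 per age) was converted from 2 ng, amplified in 5 rounds of PCR and counted on the nCounter panel, per the labels. The authors deposited whole raw counts per probe. The deposited score values are counts that the authors scaled to positive controls and reference genes, per the labels. The deposited fold is the ratio of the authors' P28 mean to their P14 mean. The deposited p-values were calculated by the authors with a t-test and were not used. The kind of t-test and the counting software are not stated.

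Raw counts were tested with edgeR 4.0.16 (R 4.3.3), quasi-likelihood, with the geometric mean of 6 reference genes as the scale, over the 366 of 545 genes over a threshold of 2 SD above the mean of 8 negative probes in at least 40% of samples. P-values were adjusted by Benjamini-Hochberg over all 366 (FDR 0.05), and over the other 365 for ratios to a beta chain. Log2 fold changes are given with SE. DESeq2 1.42.0, limma 3.58.1 (pseudocount 1), other scalings, filters and left-out samples were alternatives. The code was tested on simulated data. All 9 chains, and every panel gene of the lists of ligands, partners and cell markers, were taken. The text names every chain, the 3 genes most like a chain by age-centred Pearson correlation, and every ligand or partner that passed, with others as examples. The members and lists were chosen with earlier results of these data known. Promoter windows are from RefSeq (GRCm38.p6). Summed levels of B cell and of monocyte and border macrophage markers are not reported here.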

Additional observations from a re-analysis of the deposited data

Results flagged for a closer look

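The ratio of Itgb1 to Itgb2 in P28 sample 138 lay far from the other P28 samples, with a log2 ratio of 2.22 against 1.70 to 1.84 in the other 5. The Fyn level of P28 sample 118, at 391 scaled counts, lay far above the 277 to 313 of the other 5 P28 samples. These were 2 of 46 sets of 6 samples examined by Dixon's test, which marks about 1 in 20 by chance.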

How the results depend on the processing

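Itgax, Itgal and Itgb1 kept their direction and their call under every alternative in which they were tested, as did Fyn and Fcer1g. Of the alpha to beta ratios, those of Itgax, Itgal, Itga4, Itga5 and Itga6 passed in the same direction under all 16 alternatives. The number of chains lower at P28, 2 as reported, was 5 without Polr1b, with positive controls alone and with total counts, 4 with TMM factors, with DESeq2 size factors and without P14 samples 4 and 5, and 1 with limma on the authors' values, which lack Itgal. The number higher, also 2, was 1 with positive controls alone, 3 in 11 of 28 alternatives, in each of which Itga4 was added, and 2 in the other 16. At an FDR of 0.01, 2 in place of 7 ligands and partners passed. With positive controls alone the sign turned for Itga4 (-0.25), Itga5 (-0.35), Cd9 (-0.25) and Plaur (-0.16), as the median of all genes moved to -0.74. Itgb2, which passed nowhere, was -0.89 with positive controls alone (adjusted p = 0.0619) and -0.30 without P14 samples 4 and 5. It lay between -0.18 and 0.025 with 1 sample left out. It turned to 0.044 with the authors' factors, 0.080 with limma on their values and 0.025 without P14 replicate 16. The ratio of Itgam to Itgb2 turned to 0.14 without P14 samples 4 and 5. Except where the moved median or the missing gene is named, the cause was not tested. With 1 sample left out in turn, 2 to 3 chains were higher (Itga4 added without P14 sample 81 or P28 sample 119), 2 to 3 were lower (Itga2b, Itga6 or Itgam added without P14 sample 4, P14 sample 5 or P28 sample 138), 7 to 8 ligands and partners passed, and 2 to 2 alpha chains changed relative to Itgb2 and 3 to 3 relative to Itgb1. No paired analysis was possible because the samples of the 2 ages share no replicate numbers. Counts near background limit Itgal, Itga4, Itga2b, Cd97, Icam5, Fn1, Thy1 and the P14 level of Itgax.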
